A study of Mus musculus with 8 samples.

Results

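Ephrin-B ligands and the Eph receptors that bind them are membrane proteins through which neighbouring cells signal on contact. The gene set described here has 9 members, of 54532 genes in the deposited count table: the 3 ephrin-B ligand genes Efnb1, Efnb2 and Efnb3, the 5 EphB receptor genes Ephb1, Ephb2, Ephb3, Ephb4 and Ephb6, and Epha4, an EphA receptor that also binds ephrin-B ligands. Members were taken by gene symbol, and Efnb3 was selected on its low level in the libraries labelled Nsun5-KO, so its difference between the groups is given as a description, with no test. All 9 members passed the filter on low counts, which kept 16062 genes.

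Brain tissue came from 3-month-old male mice that were either wild type (WT) or labelled Nsun5-KO, a knockout of the gene for a methyltransferase of the large ribosomal RNA whose allele is not described in the sources used here. Per the labels, each genotype gave 5 littermates, taken under pentobarbital sodium, and RNA was extracted with TRIzol; 4 libraries of each genotype were analysed here. The labels do not say whether each library is 1 mouse, so p-values measure the spread between these libraries. In bulk tissue, fewer cells of a type and less RNA per cell cannot be told apart.

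The libraries held 15642086 to 17829523 counts. Genes with at least 1 count numbered 22619 to 22944 in WT and 22210 to 22414 in Nsun5-KO, ranges that did not overlap; the part of this in the results below was not tested. The gene named in the label, Nsun5, had 91, 82, 103 and 109 counts in WT and 102, 124, 83 and 110 counts in Nsun5-KO, so its RNA did not set the groups apart. Every direction below is therefore between labelled libraries. WT replicates 1 and 2 lay apart from the other 6 libraries on the first principal component, which held 25.7% of the variance. Of 8 cerebellar markers, checked because the tissue is described as whole brain, Gabra6 (0 to 30 counts), Pcp2 (0 to 19), Cbln3 (3 to 49) and En2 (6 to 59) were low in every library. The other 4, Zic1 (264 to 1105 counts), Zic2 (196 to 442), Car8 (165 to 315) and Neurod1 (122 to 234), were higher.

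Eph receptors are receptor tyrosine kinases. When an ephrin binds, the receptor signals into its own cell (forward signalling), while an ephrin-B, which spans the membrane and carries a cytoplasmic tail, signals into the ligand-bearing cell (reverse signalling) through tail tyrosines and a terminal motif that binds PDZ domains. In the nervous system the pathway is known for repelling growing axons, shaping dendritic spines and excitatory synapses, and guiding vessel growth. Ephrin-B3 is known as a midline barrier to corticospinal axons that carry EphA4, and as a ligand on myelinating oligodendrocytes.

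The 3 ligand genes differ over most of their coding sequence but share its last stretch, which encodes the end of the tail with the PDZ-binding motif. The final 99 coding bases, read 5′ to 3′ from GENCODE M21 transcripts on mm10 and aligned at the stop codon, are printed to show how alike the 3 genes are there. Capitals mark bases that are the same in all 3 genes. Each stretch lies in a single exon: chrX:99147429-99147527 (plus strand) for Efnb1, chr8:8620588-8620686 (minus strand) for Efnb2 and chr11:69555860-69555958 (minus strand) for Efnb3.
Efnb1: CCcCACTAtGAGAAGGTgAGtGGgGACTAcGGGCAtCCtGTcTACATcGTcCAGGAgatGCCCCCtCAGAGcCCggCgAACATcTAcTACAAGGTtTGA
Efnb2: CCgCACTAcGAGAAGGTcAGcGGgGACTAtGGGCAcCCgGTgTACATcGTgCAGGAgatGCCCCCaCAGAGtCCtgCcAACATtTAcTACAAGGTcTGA
Efnb3: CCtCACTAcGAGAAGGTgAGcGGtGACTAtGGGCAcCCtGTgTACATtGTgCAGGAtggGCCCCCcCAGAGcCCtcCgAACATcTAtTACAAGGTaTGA

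Of these 99 positions, 77 hold the same base in all 3 genes, and no identical run is longer than 8 bases. Over aligned codons of the whole coding sequence, base identity was 61.5% between Efnb1 and Efnb2, 53.4% between Efnb1 and Efnb3, and 51.4% between Efnb2 and Efnb3. The longest coding run that any pair of ligand genes shares is 22 bases, between Efnb1 and Efnb3. Among the receptors the longest such runs are 38 bases (Ephb1 and Ephb3), 29 bases (Ephb2 and Ephb3) and 27 bases (Ephb1 and Ephb2).

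Ephb6 differs from the other receptors at the catalytic loop of the kinase domain, and it is known as a receptor without kinase activity. The 30 coding bases around the catalytic aspartate are printed to show that difference, with the codon at that place in capitals, 5′ to 3′ on the coding strand. They lie at chr9:101964028-101964057 for Ephb1, chr4:136659659-136659688 for Ephb2, chr16:21221375-21221404 for Ephb3, chr5:137369803-137369832 for Ephb4, chr6:41618661-41618690 for Ephb6 and chr1:77382959-77382988 for Epha4 (mm10; minus strand for Ephb1, Ephb2 and Epha4, plus strand for the others).
Ephb1: gtgcaccggGACctggctgctagaaacatt
Ephb2: gtgcaccgtGACcttgctgctcgaaacatc
Ephb3: gtgcaccgtGACcttgctgcccgaaacatc
Ephb4: gtccaccgaGACctggctgctcggaacatc
Ephb6: gttcaccgaGCActctcggcccgaagtgtg
Epha4: gtgcatcgaGACctggctgccaggaacatc

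The codon is GAC, for aspartate, in Ephb1, Ephb2, Ephb3, Ephb4 and Epha4, and GCA, for alanine, in Ephb6. The level of this receptor, known to be without kinase activity, therefore matters for reading the receptor total given below.

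The 3 ligand genes did not move together. Efnb3 lay lower in every library labelled Nsun5-KO than in any WT library, while Efnb2 stayed at the same level and Efnb1 lay slightly higher with overlapping groups. Efnb3 (ENSMUSG00000003934, mm10 chr11:69554092-69560205, minus strand, overlapping no other annotated gene) had 149.8, 161, 120.2 and 135 CPM (counts relative to the library total, adjusted with edgeR's trimmed mean of M values) in WT replicates 1 to 4. In replicates 1 to 4 labelled Nsun5-KO it had 79.6, 90.2, 92.4 and 106 CPM. The highest library labelled Nsun5-KO, replicate 4, lay below the lowest WT library, replicate 3. Means were 142 ± 17.9 CPM in WT and 92.1 ± 10.9 CPM in Nsun5-KO (SD, n = 4 each), a log2 fold change of -0.62 (SE 0.11), or 34.9% lower. These values chose the gene and are no evidence of a difference; across all genes tested, 2.71% had groups that did not overlap with Nsun5-KO lower, and 5.70% in either direction.

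Efnb3 kept its direction in all 21 alternatives, with log2 fold changes from -0.70 to -0.47. The value of Efnb3 without WT replicates 1 and 2, the libraries that stood apart, was -0.47. A kept direction was largely fixed by the choice of this gene, whose groups did not overlap, and is no evidence of a difference.

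Efnb2, which encodes the arterial ligand ephrin-B2 and is also made by neurons and glia, lies at mm10 chr8:8617434-8661242. It had 66.1, 79.97, 67.5 and 72.6 CPM in WT and 72.7, 62.4, 74.9 and 78.9 CPM in Nsun5-KO. The groups covered the same range, with WT replicate 2 highest and the lowest value in Nsun5-KO replicate 2. The log2 fold change was 0.01 (SE 0.089), with a 95% interval from -0.18 to 0.21 (edgeR quasi-likelihood test, adjusted p = 0.971).

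Efnb1, the ligand on the X chromosome (mm10 chrX:99136130-99148991), had 15.0, 13.3, 15.5 and 18.5 CPM in WT and 18.8, 16.7, 21.98 and 13.4 CPM in Nsun5-KO. Nsun5-KO replicates 1 to 3 exceeded the WT mean of 15.6 ± 2.17 CPM and replicate 4 lay below it, level with the lowest WT library. Its log2 fold change was 0.18 (SE 0.15), with an interval from -0.15 to 0.52 (edgeR adjusted p = 0.719). Leaving out 1 library moved it to 0.07 (Nsun5-KO replicate 3), 0.11 (WT replicate 2) or 0.30 (Nsun5-KO replicate 4).

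**Figure D1:**
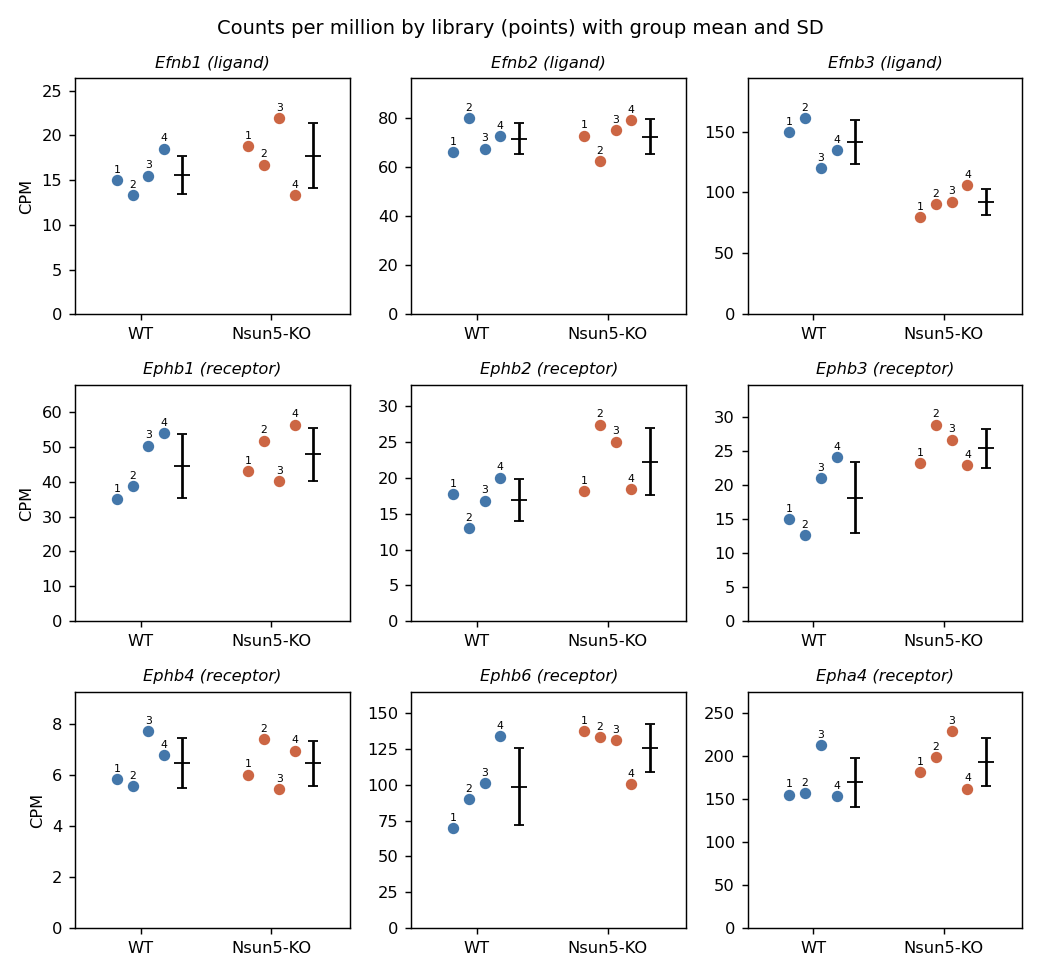
CPM (counts relative to library size, vertical axes, each from 0) of the 9 genes in WT and Nsun5-KO libraries; points are the 4 libraries of a group, and the bar beside them is the mean with SD. Efnb3 has separate groups (120.2 to 161 in WT, 79.6 to 106 in Nsun5-KO), and the points of the other 8 genes overlap.

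Among the 6 receptors, 5 had a fold change above 0 (6 with DESeq2, where Ephb4 lay at 0.0011) and none passed the test. Ephb3, Ephb2 and Ephb6 had the largest values, Epha4, Ephb1 and Ephb4 the smallest. At an edgeR adjusted p below 0.05, 0 of the 8 members other than Efnb3 were called, as were 0 (0%) of all 16062 genes; DESeq2 called 94 of 16058 genes (0.585%) and none of the 8. At an unadjusted p below 0.05, Ephb2 and Ephb3 lay higher, against 5.30% of all genes that lay higher, 5.05% that lay lower and 10.4% in either direction. Groups overlapped in all 8, where 2.99% of all genes were separate with Nsun5-KO higher. Of the 8, 7 had a fold change above 0, against 48.6% of all genes, whose median was -0.01; of the 7, Efnb2 turned below 0 under upper-quartile scaling (-0.0095) and library totals (-0.011).

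Ephb3, a kinase receptor for ephrin-B ligands (mm10 chr16:21204755-21223305), had 14.9, 12.6, 20.95 and 24.0 CPM in WT and 23.2, 28.8, 26.6 and 22.8 CPM in Nsun5-KO. All libraries labelled Nsun5-KO lay above WT replicates 1 to 3, but WT replicate 4 lay above Nsun5-KO replicates 1 and 4. Means were 18.1 ± 5.27 and 25.4 ± 2.88 CPM (SD, n = 4 each). The log2 fold change was 0.48 (SE 0.19), with an interval from 0.07 to 0.89 and an edgeR adjusted p of 0.418. The exact two-sided permutation p was 0.0857, where 4 against 4 libraries allow no p below 0.0286. Without WT replicates 1 and 2, its lowest libraries, the fold change was 0.17.

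Ephb2, known for clustering NMDA receptors at excitatory synapses (mm10 chr4:136647539-136835988), had 17.8, 13.0, 16.8 and 20.05 CPM in WT and 18.1, 27.5, 25.1 and 18.5 CPM in Nsun5-KO. Replicates 2 and 3 labelled Nsun5-KO lay above every WT library, and replicates 1 and 4 lay inside the WT range. Means were 16.9 ± 2.94 and 22.3 ± 4.71 CPM, and the log2 fold change was 0.40 (SE 0.16), with an interval from 0.04 to 0.76, an edgeR adjusted p of 0.446 and an exact permutation p of 0.143.

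Ephb6, the receptor without a catalytic aspartate codon (mm10 chr6:41605482-41620509), had 69.6, 89.8, 101 and 134 CPM in WT and 137, 133, 131 and 100.7 CPM in Nsun5-KO. WT replicates spread over almost the whole range of both groups, and Nsun5-KO replicate 4 lay apart from the other 3 of its group. The log2 fold change was 0.35 (SE 0.19), with an interval from -0.08 to 0.78 (edgeR adjusted p = 0.567; exact permutation p = 0.200). Without WT replicates 1 and 2 it was 0.09, without WT replicate 1 alone 0.21, and without WT replicate 4 it was 0.53.

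Epha4, the ephrin-B3 receptor of corticospinal and other axons (mm10 chr1:77367185-77515088), had 155, 157, 212 and 153 CPM in WT and 181, 198, 228 and 162 CPM in Nsun5-KO. WT replicate 3 stood well above the other WT libraries, which lay close together and below all 4 libraries labelled Nsun5-KO. The log2 fold change was 0.19 (SE 0.13), with an interval from -0.10 to 0.47 (edgeR adjusted p = 0.662). Leaving out WT replicate 3 gave 0.31, leaving out Nsun5-KO replicate 3 gave 0.10, and leaving out WT replicates 1 and 2 gave 0.07.

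Ephb1, a kinase receptor for ephrin-B ligands known in axon guidance (mm10 chr9:101922128-102354693), had 35.0, 38.8, 50.4 and 53.9 CPM in WT and 42.9, 51.8, 40.1 and 56.4 CPM in Nsun5-KO. The groups interleaved, with WT replicates 1 and 2 lowest, and the log2 fold change was 0.10 (SE 0.15, interval -0.24 to 0.44, edgeR adjusted p = 0.861). Without WT replicates 1 and 2 it was -0.13, and with any 1 library left out it lay between 0.00075 and 0.20.

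Ephb4, the receptor for ephrin-B2 on venous endothelium (mm10 chr5:137350109-137378669), was the member with the fewest reads. It had 5.86, 5.57, 7.73 and 6.80 CPM in WT and 6.03, 7.43, 5.46 and 6.97 CPM in Nsun5-KO. The groups covered the same range, and the log2 fold change was -0.003 (SE 0.16), with an interval from -0.35 to 0.35 (edgeR adjusted p = 0.996). Its end overlaps Zan on the opposite strand by 33 bases, and Zan had 0 to 15 counts.

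**Figure D2:**
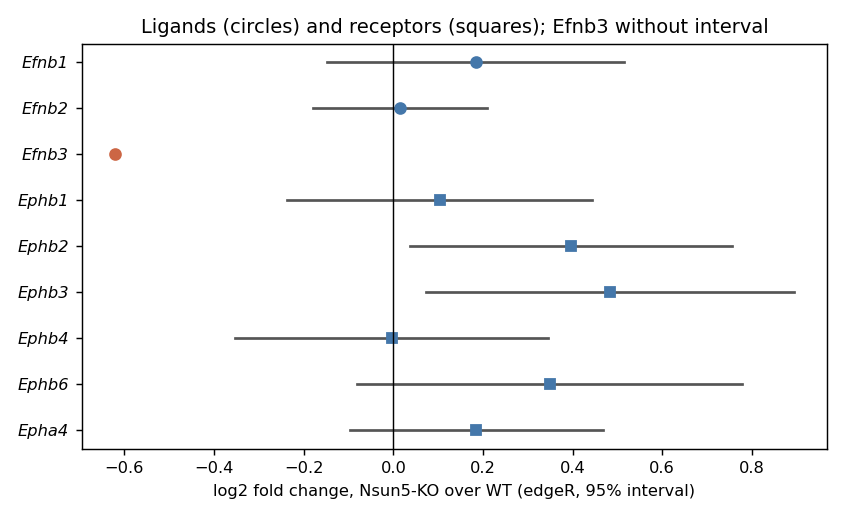
Log2 fold change of Nsun5-KO over WT (horizontal axis) for each gene, as fitted by edgeR over 4 against 4 libraries, with 95% intervals; circles are ligands and squares receptors. Efnb3, chosen for its low level, stands at -0.62 without an interval, and the intervals of Ephb2 and Ephb3 begin above 0. The intervals are not adjusted for the number of genes tested, and the edgeR adjusted p was 0.446 for Ephb2 and 0.418 for Ephb3.

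Levels can be compared between genes only per length, for which the authors' FPKM was used (fragments divided by the gene's length and the size of the library). Over the 8 libraries the mean FPKM levels were 36.4 for Efnb3, 29.6 for Ephb6, 22.3 for Epha4, 10.4 for Efnb2, 6.55 for Ephb1, 4.80 for Efnb1, 3.26 for Ephb3, 1.55 for Ephb2 and 1.39 for Ephb4. Efnb3, Ephb6 and Epha4 thus had the highest levels of the set, and their places in the order were not the same in the 2 groups. Efnb3 exceeded Ephb6 in all 4 WT libraries and in 1 of the 4 labelled Nsun5-KO, and Ephb6 exceeded Epha4 in 7 of 8. The change in the place of Efnb3 follows in part from its choice for a low level in Nsun5-KO and was not tested.

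Epha4 (18.9 to 28.3 FPKM) and Efnb2 (9.08 to 11.6 FPKM) did not overlap, and neither did Efnb2 and Ephb1 (4.96 to 7.996 FPKM). The lower neighbours overlapped: Ephb1 lay above Efnb1 in 7 of 8 libraries, Efnb1 above Ephb3 and Ephb3 above Ephb2 in 8 of 8, and Ephb2 above Ephb4 in 5 of 8. FPKM depends on the gene length used. With the length of the 1 GENCODE transcript whose coding sequence was read above, an alternative added after seeing the data, the mean level of Ephb2 was 4.06 FPKM. On that scale Ephb6 (29.7) exceeded Epha4 (28.4) in 4 of 8 libraries, and Ephb3 (5.17) took the place above Efnb1 (5.08).

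Summed over the 3 ligand genes, the FPKM level was 58.9 ± 5.79 in WT and 44.4 ± 3.49 in Nsun5-KO (SD, n = 4 each), with ranges of 51.7 to 65.6 and 40.8 to 48.3. This sum contains Efnb3, so its separation follows from the choice of that gene and is not tested. Efnb3 made up 74.7% ± 2.47 of the ligand sum in WT and 64.7% ± 3.55 in Nsun5-KO. Without it, Efnb1 and Efnb2 summed to 14.8 ± 0.942 FPKM in WT and 15.6 ± 1.40 FPKM in Nsun5-KO, ranges that overlapped.

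The 6 receptors summed to 58.5 ± 10.3 FPKM in WT and 70.7 ± 6.99 FPKM in Nsun5-KO, with overlapping ranges of 47.2 to 68.5 and 60.8 to 75.9. Ephb6 made up 43.9% ± 5.73 of that sum in WT and 46.8% ± 3.15 in Nsun5-KO. Epha4 made up 36.1% ± 5.87 and 33.6% ± 2.53. By these group means, the receptor lacking the aspartate codon was the largest share in both groups. In WT replicate 1, however, Epha4 (40.4%) exceeded Ephb6 (38.7%). With the length of 1 transcript, the means of Ephb6 and Epha4 were 26.0 and 26.5 FPKM in WT. In Nsun5-KO they were 33.3 and 30.3 FPKM on that scale.

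The ratio of the ligand sum to the receptor sum was 1.28, 1.25, 0.783 and 0.847 in WT replicates 1 to 4 and 0.576, 0.560, 0.609 and 0.795 in those labelled Nsun5-KO. WT replicates 1 and 2 lay far above the rest, and WT replicate 3 lay below Nsun5-KO replicate 4, so the groups overlapped. The same WT replicates 1 and 2 had the lowest receptor sums of the 8 libraries. The ligand sum contains Efnb3, so a lower ratio in Nsun5-KO follows in part from the choice of that gene and was not tested.

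**Figure D3:**
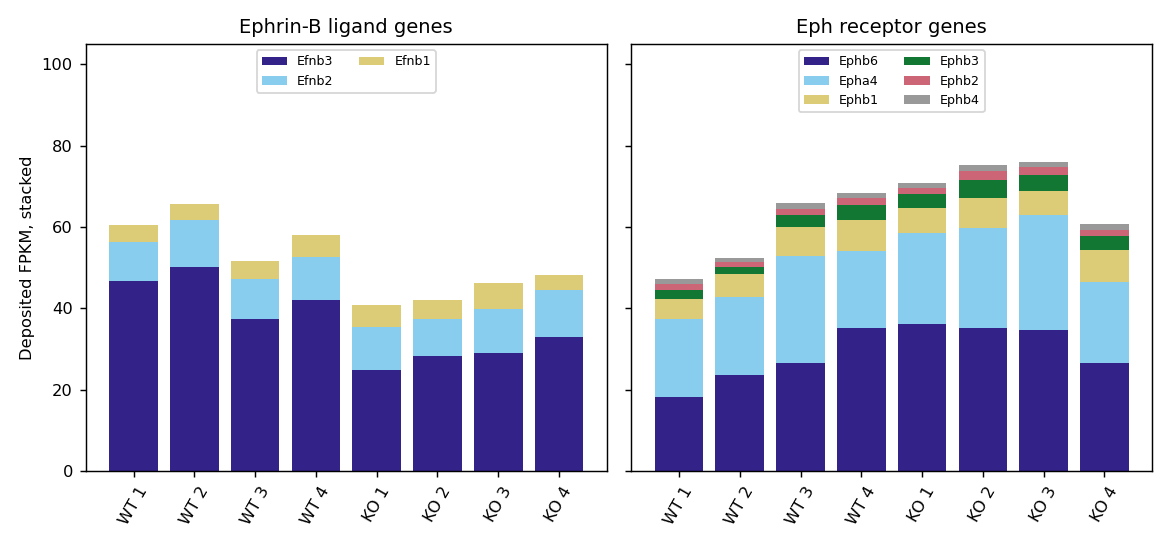
Deposited FPKM (vertical axis) of the 3 ligand genes (left) and the 6 receptor genes (right), stacked by gene, in each of the 8 libraries, where KO stands for Nsun5-KO. Efnb3 is the largest part of every ligand column, and the receptor columns of WT 1 and WT 2 are the lowest of all.

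**Figure D4:**
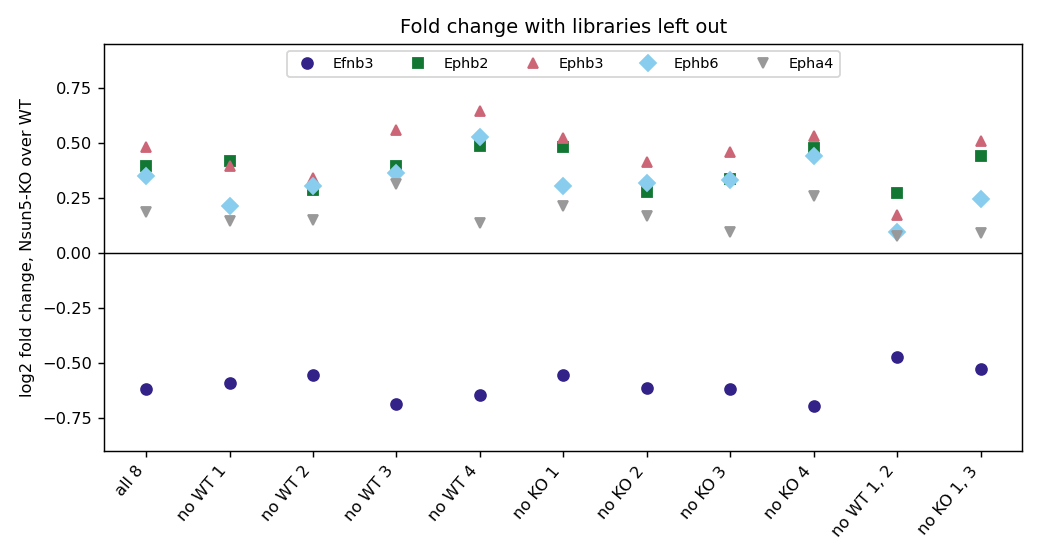
Log2 fold change of Nsun5-KO over WT (vertical axis) for Efnb3, Ephb2, Ephb3, Ephb6 and Epha4, fitted with all 8 libraries and with 1 or 2 libraries left out, as named on the horizontal axis. Without WT replicates 1 and 2, Ephb3 and Ephb6 lie at 0.17 and 0.09 and Efnb3 at -0.47.

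Some lists of marker genes of cell types and regions lay apart between the groups in these libraries, and others did not. Their values are given beside the results above, and their part in those results was not tested. All 12 markers of myelinating oligodendrocytes lay lower, with a summed level of 7248 to 7876 CPM in WT and 4719 to 6491 CPM in Nsun5-KO. All 8 ependymal markers also lay lower (29.0 to 43.9 against 13.1 to 24.7 CPM), as did all 9 tested of 12 hypothalamic markers (35.3 to 173 against 16.4 to 27.6 CPM). The other 3, Hcrt, Pmch and Agrp, did not pass the filter on low counts but are in the sums: Hcrt had 601 and 166 counts and Pmch 901 and 281 counts in WT replicates 1 and 2, against 0 to 14 and 0 to 17 counts in the other 6 libraries.

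Markers of cortex and hippocampus lay higher for 8 of 8 genes, with sums of 1204 to 1547 CPM in WT and 1577 to 2035 CPM in Nsun5-KO. Of 8 general neuronal markers, 7 lay higher (6767 to 6993 against 7650 to 8151 CPM). That sum weighs most on Snap25, with means of 2323 CPM in WT and 2998 CPM in Nsun5-KO. Tubb3, Stmn2 and Map2 had log2 fold changes of 0.03, 0.03 and -0.03. Of 10 endothelial markers, the cell type of Efnb2 and Ephb4 in vessels, 6 lay higher and 4 lower, and sums overlapped (289.7 to 344 against 312 to 345 CPM). Markers of oligodendrocyte precursors (7 of 8), choroid plexus (8 of 8), striatum (8 of 8) and medial habenula (7 of 7 tested) also lay lower, each with overlapping sums. Astrocyte (3 of 8 higher), microglial (3 of 8) and mural cell markers (4 of 7) were mixed in direction. So were those of thalamus (3 of 7 tested) and cerebellum (2 of 6 tested). Sums overlapped in each of these mixed lists. No marker of these lists was at 0 in all 8 libraries.

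The genes whose level followed that of Efnb3 most closely over the 8 libraries, by Pearson's r of log2 CPM among 14946 genes with a mean of at least 1 CPM, were Faf1 (r = 0.98), Nkx2-1 (0.98), Shtn1 (0.98), Fkbp14 (0.97) and Megf6 (0.97). All 5 lay lower in Nsun5-KO, like the gene they were matched to. Nkx2-1, a transcription factor of the ventral forebrain and hypothalamus, had 2.78 ± 1.08 CPM in WT and 0.780 ± 0.470 CPM in Nsun5-KO. With each group's mean subtracted, the closest were Zfp788 (0.99), Fstl5 (0.99), Ppp4r3a (0.99), Rerg (0.98) and Gabrg1 (0.98). No gene was among the closest 5 by both measures, but the first 5 named had r of 0.83 to 0.96 with group means subtracted. Without that subtraction Zfp788 and Ppp4r3a had r of -0.10 and 0.09, and Fstl5, Rerg and Gabrg1 had 0.86, 0.84 and 0.90. With 8 libraries against so many genes, such values describe these libraries only.

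The other genes of the pathway were taken from lists by role, 68 genes of which 65 were tested. At an edgeR adjusted p below 0.05 none was called, and at an unadjusted p below 0.05, 7 lay higher and 2 lower, which is 13.8% against 10.4% of all genes. Groups were separate for 3 of the 65, Pak1, Arhgef7 and Rgs3, against 5.70% of all genes. Their median log2 fold change was 0.02.

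Forward signalling, the kinases, exchange factors and adaptors that act below Eph receptors, had 15 genes above 0 and 15 below, with a median of -0.002. Pak1, a kinase that acts on the actin cytoskeleton, had 519.9, 449.5, 517.5 and 501.5 CPM in WT and 616, 605.4, 605.3 and 565.5 CPM in Nsun5-KO. Each library labelled Nsun5-KO lay above every WT library, and the log2 fold change was 0.27 (edgeR adjusted p = 0.313; DESeq2 adjusted p = 0.0364). Chn1, which encodes alpha-chimaerin, a protein that acts below EphA4, had a log2 fold change of 0.18 (edgeR adjusted p = 0.436).

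Reverse signalling and PDZ partners of ephrin-B had 6 of 15 genes above 0 and a median of -0.01. Rgs3, whose protein binds the ephrin-B tail through a PDZ domain, had 21.4, 24.2, 26.5 and 21.6 CPM in WT and 20.9, 21.2, 13.7 and 18.2 CPM in Nsun5-KO. All libraries labelled Nsun5-KO lay below the lowest WT library, replicates 1 and 2 only just, and the log2 fold change was -0.34 (edgeR adjusted p = 0.434). Arhgef7, an exchange factor that binds PAK kinases, had 119.4, 117.8, 119.0 and 117.9 CPM in WT and 130.7, 122.9, 141 and 128.8 CPM in Nsun5-KO (log2 fold change 0.14, edgeR adjusted p = 0.464). Dock1, a guanine nucleotide exchange factor, had a log2 fold change of -0.14 (edgeR adjusted p = 0.590).

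Of the ephrin-A ligands, which are anchored by a lipid and bind EphA receptors, 3 of 4 tested lay above 0 with a median of 0.14, and Efna4 did not pass the filter. Efna5 had 17.5 ± 1.41 CPM in WT and 21.4 ± 3.98 CPM in Nsun5-KO, a log2 fold change of 0.29 (edgeR adjusted p = 0.475). Efna1 and Efna3 had log2 fold changes of -0.34 and 0.13 (edgeR adjusted p = 0.701 and 0.723). Of the other EphA receptors, 5 of 7 tested lay above 0 with a median of 0.09; Epha3, Epha10 and Epha2 had values of 0.29, 0.18 and 0.35 (edgeR adjusted p = 0.660, 0.727 and 0.736), and Epha1 did not pass the filter.

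Of the genes of Eph receptor and ephrin cleavage, proteases and gamma-secretase subunits, 6 of 9 tested lay above 0 with a median of 0.03. Adam8 did not pass the filter. Aph1a, a subunit of gamma-secretase, had 29.0 ± 4.17 CPM in WT and 34.2 ± 1.99 CPM in Nsun5-KO (log2 fold change 0.24, edgeR adjusted p = 0.461). Psenen, another gamma-secretase subunit, and the matrix protease Mmp2 had log2 fold changes of -0.11 and -0.27 (edgeR adjusted p = 0.672 and 0.730).

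**Figure D5:**
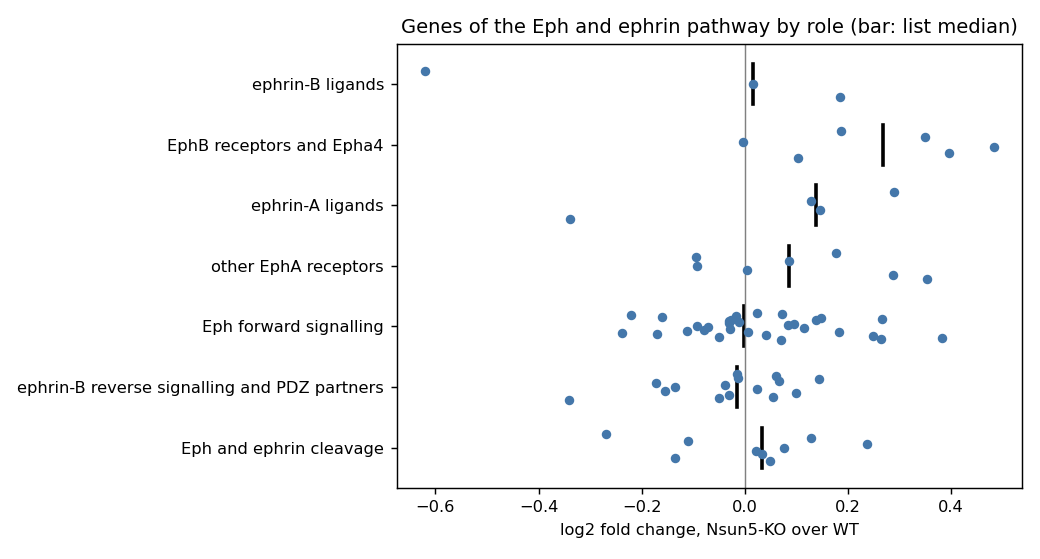
Log2 fold change of Nsun5-KO over WT (horizontal axis) of each tested gene of 7 lists, by role, with the list median as a bar. The receptor list has the highest median, 0.27, and the ligand list, whose lowest point is Efnb3, was chosen in part for that gene. Without WT replicates 1 and 2 the receptor median was 0.08.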

How the data were processed

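The authors deposited raw counts of reads per gene and FPKM values for the same genes, with coordinates and gene length, per the file headers. The submitters' processing notes name HISAT2 2.0.5 and mm10. How reads were counted, on which annotation, and what became of reads that fit several genes is not given in the sources used here. A NEBNext Ultra RNA kit, named in the labels, does not mark strand, so the strand a read came from is unknown. In the deposited FPKM values each library was divided by a constant of 0.981 to 1.02 times its count total. No pair of replicates agreed within sampling noise (chi-square per degree of freedom 7.74 to 22.3).

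The test was edgeR 4.0.16 (R 4.3.3): filterByExpr by group, trimmed mean of M values, and the robust quasi-likelihood test of genotype over all 8 libraries, with Benjamini-Hochberg adjustment over 16062 genes. Symbols and positions of 9 of 9 members matched GENCODE M21, which gave the sequences. Single CPM values were compared with an exact two-sided permutation test over 70 labelings. The members and all gene lists were chosen with earlier results of these data known. Genes named are the members, the 3 genes of each pathway list with the smallest p, the 5 genes most like Efnb3 by each measure, and genes that overlap a member; Rgs3, Pak1 and Arhgef7 fall under that rule, and 1 gene that it takes is not reported here. Zan is the overlapping gene with reads; the others, at Efnb2, Ephb1 and Epha4, had at most 5 counts in a library.

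Alternatives were DESeq2 1.42.0, limma 3.58.1 with voom weights or on log2 FPKM (pseudocounts 1 and 0.1), 3 other scalings, 2 other low-count filters, a fit to protein-coding genes, a replicate block, and leaving out libraries. The scripts were tested on simulated data.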

Additional observations from a re-analysis of the deposited data

Results flagged for a closer look

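In a group of 4 libraries, a value was marked where its gap to the nearest other library was most of the group's range (Dixon's 95% limit), which chance gives in about 1 in 20 groups; 18 groups were examined. Ephb6 in Nsun5-KO replicate 4, at 100.7 CPM, lay below the other 3 of its group (131 to 137 CPM), and its log2 fold change without that library was 0.44. Epha4 in WT replicate 3, at 212 CPM, lay above the other 3 WT libraries (153 to 157 CPM), and its log2 fold change without that library was 0.31.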

How the results depend on the processing

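Over 21 alternatives, the log2 fold changes of the 8 members other than Efnb3 kept direction in 150 of 168 values, and none came to an adjusted p below 0.05. The 18 values that changed sign belong to genes near 0 or to fits without several libraries. Efnb2 was -0.0095 under upper-quartile scaling, -0.011 under library totals, and -0.032 to 0.075 with 1 library left out. Ephb4 was 0.0011 under DESeq2, 0.00092 without the low-count filter, 0.00084 and 0.0019 on log2 FPKM with pseudocounts of 1 and 0.1, and -0.081 to 0.092 with 1 library left out. Without WT replicates 1 and 2, Ephb1 was -0.13, Efna3 -0.018, Epha10 -0.044 and Epha2 -0.042. Without Nsun5-KO replicates 1 and 3, the lowest in oligodendrocyte markers, Efnb1 was -0.052, Efnb2 -0.018 and Ephb4 0.15. The cause was not tested.

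Over all genes, edgeR called 0; DESeq2 called 94, edgeR without a low-count filter 68, and edgeR with 1 library left out 0 to 2 (2 without Nsun5-KO replicate 4). Same-numbered libraries did not deviate together (r = -0.21 to 0.06), so the numbers are not read as pairs; with a replicate block edgeR called 0 genes and 0 members. No scaling moved the median of all genes by over 0.1. Ephb4 had the lowest CPM of the 9 members.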
